A study of Mus musculus with 10 samples.

Results

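Serotonin neuron genes and serotonin receptor genes were followed in RNA from the brain hemisphere of mice after experimental stroke. The set named 9 genes, Tph2, Slc6a4, Fev, Slc18a2, Maob, Htr1a, Htr1b, Htr2a and Htr2c, and was drawn up because Tph2 fell after middle cerebral artery occlusion (MCAO) in these same arrays. A member was measured where a probe set had that 1 gene symbol in the platform annotation, and where a gene had several such probe sets the brightest, by its 10-array mean, represented it. By this rule 7 of the 9 were measured, among 18193 genes in all, and Fev and Htr2a have no value here. All differences between MCAO and sham for the 7 are therefore given as descriptions, with the standard error (SE) of the fit and no p-value, and counts past a threshold are given once, beside the share of all genes, with nothing read from them. The comparisons between genotypes were not the stated reason for the choice and were tested. Those of Tph2 use the same values that chose the set.

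The samples came from male mice, WT or Hsp72Tg, which overexpress the heat shock protein Hsp72. MCAO blocks the artery that supplies much of the striatum and the lateral cortex, and the ischemic hemisphere was taken 24 h later. In sham mice the hemisphere on the operated side was taken. The groups were WT sham (n = 2), Hsp72Tg sham (n = 2), WT MCAO (n = 3) and Hsp72Tg MCAO (n = 3). Strain, age and the promoter driving the transgene were not stated in the labels.

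Serotonin neurons have their cell bodies in the raphe nuclei, along the midline of the brainstem, and send axons through the whole brain. They make serotonin from tryptophan with Tph2 and Ddc, load it into vesicles with Slc18a2, take it up again with Slc6a4 and degrade it with monoamine oxidases, and the transcription factor Fev directs this identity. Most serotonin receptors are made by the cells that receive the signal, in cortex, hippocampus, striatum and choroid plexus. RNA of the neurons' own genes thus lies in the brainstem, while receptor RNA lies largely in the forebrain. In hemisphere tissue fewer cells of a type and less RNA per cell cannot be told apart.

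Values are log2 expression values made with RMA, so a difference of 1 is a 2-fold difference in signal. The lower quartile of all probe sets lay between 5.14 and 5.21 on the 10 arrays, and a value below it is called dim. A pair of arrays stood apart. Hsp72Tg MCAO 1 lay at -12.9 on the first principal component, which held 50.3% of the variance, between the sham arrays (-23.7 to -20.7) and the other MCAO arrays (11.7 to 32.3). WT sham 1 read 9.46 for the cerebellar gene Gabra6, which was 4.15 to 4.49 elsewhere. Hspa1b, a gene for Hsp72, read 9.12 and 9.16 in the sham arrays labelled Hsp72Tg and 9.38 and 9.48 in WT sham. The species of the transgene is not given, so a mouse probe set need not detect it and the genotype labels are unchecked.

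Promoter sequences are shown for Tph2 and Slc6a4, the genes with the largest differences after MCAO, and for the receptors Htr1a and Htr1b. Each is the 250 bases before the RefSeq transcription start in GRCm38.p6, written 5′ to 3′ on the gene's strand. Tph2 lies on the minus strand at chr10:115185023-115185272, Slc6a4 on the plus strand at chr11:76998347-76998596, Htr1a on the plus strand at chr13:105443443-105443692 and Htr1b on the minus strand at chr9:81633833-81634082. Capitals mark matches on either strand to GGAAGT or GGAAAT, forms of the core that ETS factors such as Fev bind, or to the TATA box letters TATAAA, which were added after the sequences were seen.
Tph2: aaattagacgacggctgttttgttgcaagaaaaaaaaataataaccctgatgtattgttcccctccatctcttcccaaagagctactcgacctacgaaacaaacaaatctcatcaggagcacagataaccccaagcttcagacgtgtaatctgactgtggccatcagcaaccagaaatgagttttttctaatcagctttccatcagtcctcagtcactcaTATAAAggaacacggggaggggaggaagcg
Slc6a4: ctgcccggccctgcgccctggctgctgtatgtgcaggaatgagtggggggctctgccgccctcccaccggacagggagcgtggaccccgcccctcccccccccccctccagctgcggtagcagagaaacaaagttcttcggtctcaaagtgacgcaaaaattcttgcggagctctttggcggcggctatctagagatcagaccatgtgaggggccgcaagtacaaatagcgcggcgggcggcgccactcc
Htr1a: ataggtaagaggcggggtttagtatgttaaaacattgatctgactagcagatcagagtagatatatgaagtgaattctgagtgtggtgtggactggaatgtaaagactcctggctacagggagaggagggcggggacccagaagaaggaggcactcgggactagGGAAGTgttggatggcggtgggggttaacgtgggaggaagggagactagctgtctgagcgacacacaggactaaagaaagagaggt
Htr1b: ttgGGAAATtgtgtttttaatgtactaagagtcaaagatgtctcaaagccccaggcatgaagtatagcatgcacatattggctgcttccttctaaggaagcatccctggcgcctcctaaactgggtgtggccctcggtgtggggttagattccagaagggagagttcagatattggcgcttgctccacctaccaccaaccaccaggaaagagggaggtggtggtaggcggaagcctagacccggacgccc
Tph2 held TATAAA from 30 to 25 bases before the start and neither ETS form. Slc6a4 held none of the 3 motifs. Htr1a held GGAAGT and Htr1b held GGAAAT, 86 and 247 bases before the start at their first base. Htr2c, lower in all 6 MCAO arrays, held GGAAGT on the minus strand from 183 to 178 bases before its start. Slc18a2, whose MCAO and sham values overlapped, held none of the 3. The relation of the motifs to the expression values was not tested. Among 32851 promoter windows of this length, GGAAGT was found in 19.7%, GGAAAT in 15.4% and TATAAA in 12.4%. These matches are letters only and were not tested as binding sites.

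Tph2, the enzyme that sets the rate of serotonin synthesis in neurons, was the gene by which the set was chosen. It read 5.39 and 5.40 in WT sham and 6.42 and 5.90 in Hsp72Tg sham. After MCAO it read 4.86, 3.97 and 4.17 in WT and 3.93, 4.03 and 4.01 in Hsp72Tg. Every MCAO array lay below every sham array, and all 6 MCAO values were dim while none of the 4 sham values was. MCAO minus sham was -1.62 over both genotypes (SE 0.17, n = 6 and 4), a 3.07-fold lower signal. By genotype it was -1.06 in WT (SE 0.24) and -2.17 in Hsp72Tg (SE 0.24). The difference over both genotypes lay between -1.75 and -1.49 when each array was left out. Because the MCAO values are dim, the size of the difference is limited by the array's background.

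Slc6a4, the serotonin transporter that serotonin neurons carry in their membrane, was low in the same arrays. It read 6.37 and 6.46 in WT sham and 6.32 and 6.78 in Hsp72Tg sham, against 5.89, 5.35 and 5.34 in WT MCAO and 5.28, 5.39 and 5.48 in Hsp72Tg MCAO. No MCAO value reached the sham range, and none of the 10 values was dim. MCAO minus sham was -1.03 over both genotypes (SE 0.13), a 2.04-fold lower signal, with -0.88 in WT (SE 0.18) and -1.17 in Hsp72Tg (SE 0.18). In both genes WT MCAO 1 was the MCAO array with the highest value.

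**Figure D1:**
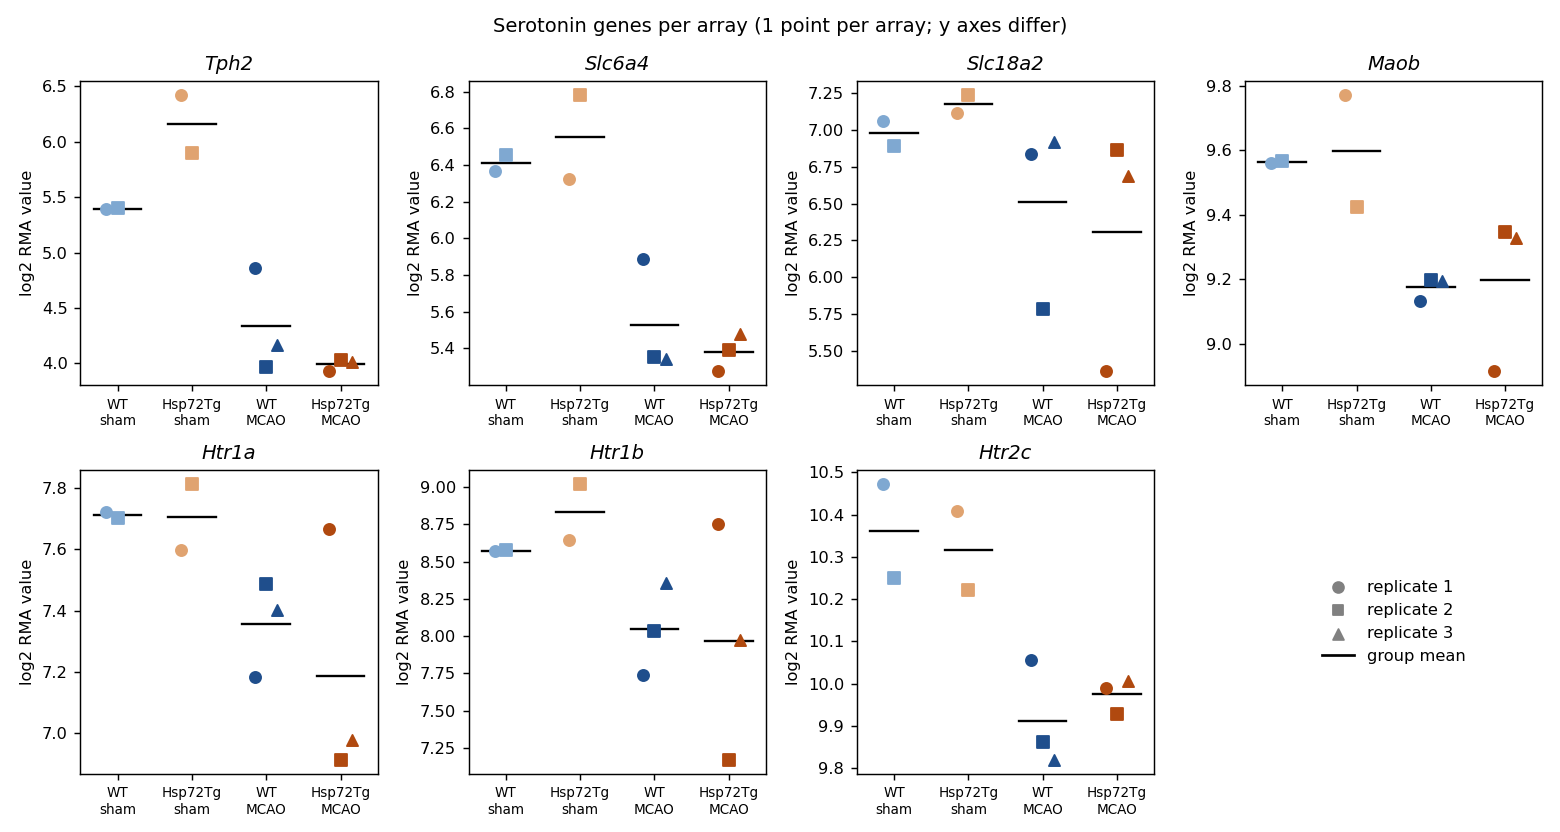
Log2 RMA value of each measured gene in every array (y axis, a scale per gene) by group (x axis), with 1 point per array, its shape giving the replicate number and a line for the group mean. Tph2, Slc6a4, Maob and Htr2c lie lower in all 6 MCAO arrays than in all 4 sham arrays, while Slc18a2, Htr1a and Htr1b overlap.

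Slc18a2, the transporter that loads serotonin, dopamine and noradrenaline into vesicles, followed another pattern. It read 7.06 and 6.89 in WT sham, 7.11 and 7.24 in Hsp72Tg sham, 6.83, 5.79 and 6.92 in WT MCAO and 5.36, 6.86 and 6.69 in Hsp72Tg MCAO. WT MCAO 2 and Hsp72Tg MCAO 1 were low, and the other 4 MCAO arrays lay at or just below the sham values. MCAO minus sham was -0.67 (SE 0.31) over both genotypes, -0.10 in WT without WT MCAO 2 and -0.40 in Hsp72Tg without Hsp72Tg MCAO 1, against -0.47 (SE 0.44) and -0.87 (SE 0.44) with all arrays. Slc6a3, the dopamine transporter, was lowest in the same arrays, at 6.47 in WT MCAO 2 and 5.89 in Hsp72Tg MCAO 1, against 7.82 to 8.54 in the other 8. Ddc, which makes both dopamine and serotonin, read 8.18 and 7.72 there and 8.79 to 9.55 elsewhere. Th, the rate-limiting enzyme of dopamine synthesis, was low in Hsp72Tg MCAO 1 at 6.80 but not in WT MCAO 2 at 8.22. The mean log2 value over 7 measured noradrenaline and dopamine neuron markers was 7.10 to 7.25 in the sham arrays, 6.89 in WT MCAO 2, 6.66 in Hsp72Tg MCAO 1 and 7.08 to 7.20 in the other MCAO arrays. Of these 7 markers 0 passed over both genotypes in limma and 1 had an unadjusted p under 0.05 (higher; Phox2a, dim in every array and named after its values were seen), against 19.1% of all genes. The low means were largely carried by Slc6a3 and, in Hsp72Tg MCAO 1, Th. Nr4a2, Pitx3 and Slc6a2, also markers of these neurons, had sham ranges of 8.94 to 9.62, 5.76 to 6.03 and 6.63 to 6.87. In Hsp72Tg MCAO 1 they read 9.10, 5.97 and 6.64, within these ranges. In WT MCAO 2 Nr4a2 at 8.72 and Slc6a2 at 6.57 lay below them, and Pitx3 at 5.82 within. Dbh read 7.49 in both arrays, below its sham range of 7.53 to 7.90. The part of these neurons in the low Slc18a2 values was not tested.

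Maob, the monoamine oxidase of serotonin neurons and astrocytes, was a little lower after MCAO. It read 9.56 and 9.57 in WT sham and 9.77 and 9.42 in Hsp72Tg sham, then 9.13, 9.20 and 9.19 in WT MCAO and 8.91, 9.35 and 9.33 in Hsp72Tg MCAO. The groups did not overlap, although Hsp72Tg MCAO 2 and 3 lay close to the lowest sham array. MCAO minus sham was -0.40 over both genotypes (SE 0.10), -0.39 in WT and -0.40 in Hsp72Tg (SE 0.15 each). The mean over 9 astrocyte markers was not lower in the same arrays, at 11.17 to 11.29 in sham and 11.19 to 11.50 after MCAO. In limma 0 of the 9 passed, and 3 had an unadjusted p under 0.05 (1 lower and 2 higher, against 19.1% of all genes). In 2 of the 9, Slc4a4 and Aldoc, every MCAO array lay below every sham array, as in Maob, against 3.41% of all genes. In 0 of the 9 every MCAO array lay above. The part of astrocytes in the Maob values was not tested.

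Htr1a and Htr1b encode receptors coupled to inhibitory G proteins. Both also act as autoreceptors, Htr1a on the cell body and Htr1b on the axon terminal, and in the forebrain Htr1a is strong in hippocampus and Htr1b in striatal neurons. Htr1a read 7.72 and 7.70 in WT sham, 7.60 and 7.81 in Hsp72Tg sham, 7.18, 7.49 and 7.40 in WT MCAO and 7.67, 6.91 and 6.98 in Hsp72Tg MCAO. Htr1b read 8.57 and 8.58 in WT sham, 8.65 and 9.02 in Hsp72Tg sham, 7.74, 8.04 and 8.36 in WT MCAO and 8.75, 7.17 and 7.98 in Hsp72Tg MCAO. In both genes Hsp72Tg MCAO 1 lay inside the sham range and the other 5 MCAO arrays lay below it. MCAO minus sham over both genotypes was -0.44 for Htr1a (SE 0.15) and -0.70 for Htr1b (SE 0.26), and -0.56 and -0.89 without Hsp72Tg MCAO 1. In Hsp72Tg it was -0.52 for Htr1a (SE 0.21) and -0.87 for Htr1b (SE 0.37), against -1.26 for Htr1b without Hsp72Tg MCAO 1 and -0.47 without Hsp72Tg MCAO 2. The second probe set of each gene gave smaller differences, -0.22 for Htr1a (SE 0.12) and -0.23 for Htr1b (SE 0.10). The mean over 6 hippocampal markers was 5.77 and 5.61 in Hsp72Tg MCAO 2 and 3, the arrays with the lowest Htr1a, and 6.09 to 6.26 in the other 8. Fibcd1, Spink8, Dsp and Trpc6 lay below their sham ranges in both arrays. Prox1 did not, at 5.96 and 6.77 against 5.55 to 6.57 in sham, and 6.77 was its highest value of all arrays. Tdo2 was dim in every array. The part of hippocampal tissue in the Htr1a values was not tested.

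Striatal neuron genes had the same array at sham level. Gpr6, a receptor of striatal projection neurons, read 8.37 in Hsp72Tg MCAO 1, within the sham range of 8.28 to 8.70, and 5.95 to 6.72 in the other MCAO arrays. Over both genotypes Gpr6 fell by 1.77 on the log2 scale (SE 0.35, limma adjusted p = 0.0466) and was the 1 of 8 measured striatal markers that passed, against 0.407% of all genes as lower. All 8 had lower values with an unadjusted p under 0.05 (19.1% of all genes in either direction), with a median difference of -0.76 against -0.03 over all genes. The adjusted p of Gpr6 was 0.0616 to 0.18 without any 1 of the 9 arrays other than Hsp72Tg MCAO 1 and 4.28e-05 without that array. It was 0.168 with a replicate block, 0.0669 with trend and robust eBayes, 0.0525 with quantile normalization and 0.0501 with the mean over probe sets. Leaving out Hsp72Tg MCAO 1 raised the number of all genes passing in limma from 266 to 2251. The mean over the 8 markers was 10.10 to 10.22 in the sham arrays, 10.28 in Hsp72Tg MCAO 1 and 8.87 to 9.36 in the other 5 MCAO arrays. The part of striatal neurons in the Htr1b values was not tested. In that same array Tph2 and Slc6a4 were at their lowest of all 10 arrays, 3.93 and 5.28.

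**Figure D2:**
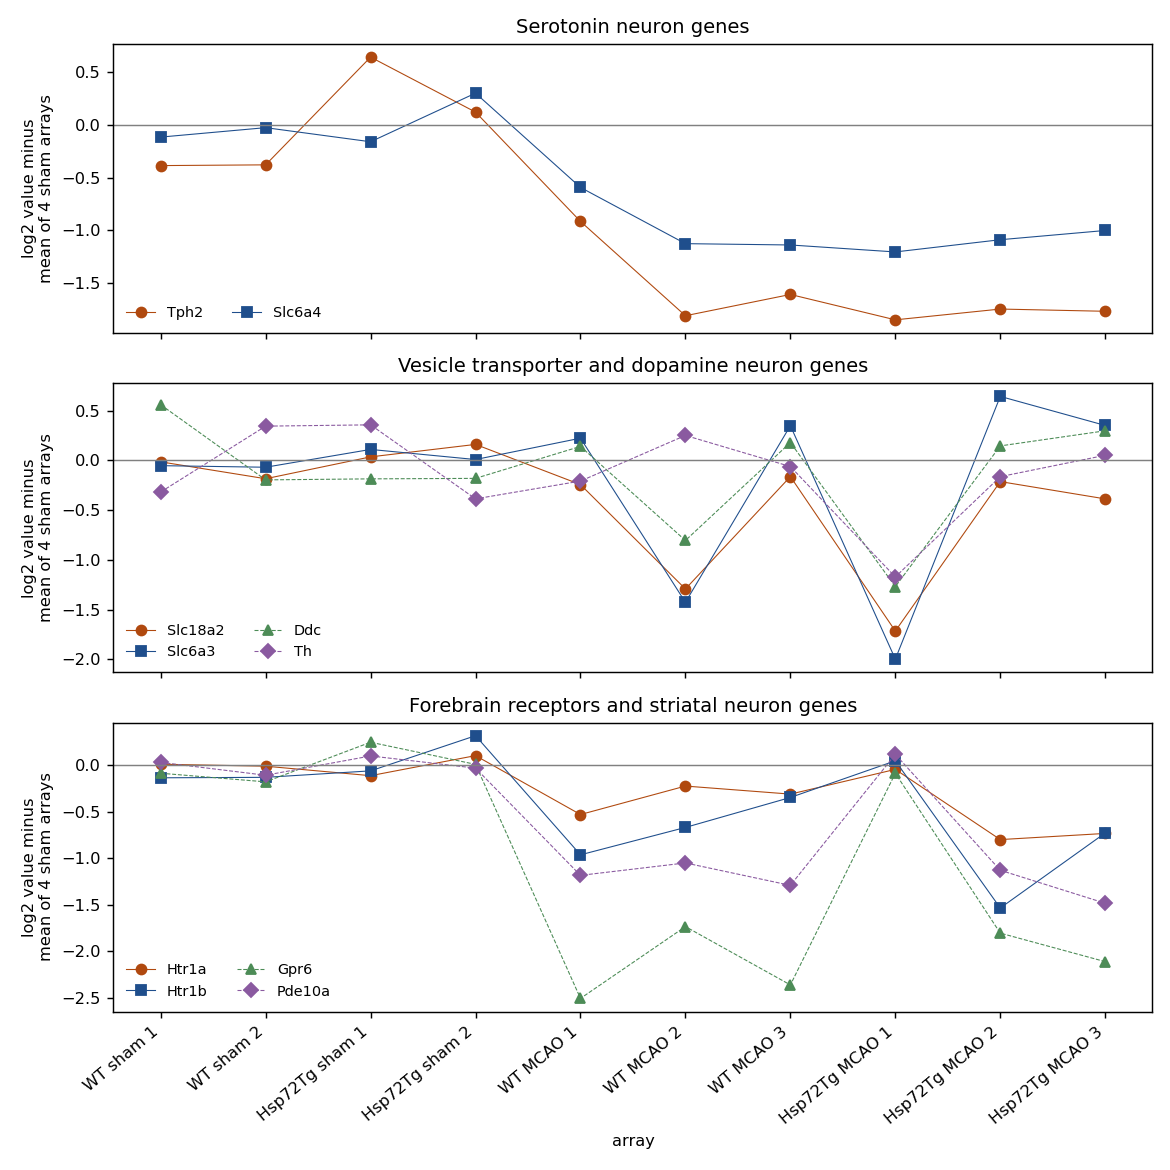
Log2 value of each gene in each array minus its mean over the 4 sham arrays (y axis), for the 10 arrays (x axis); lines only join the points of a gene. Tph2 and Slc6a4 are low in all MCAO arrays, Slc18a2, Slc6a3 and Ddc dip in WT MCAO 2 and Hsp72Tg MCAO 1, and Htr1a, Htr1b, Gpr6 and Pde10a are at sham level in Hsp72Tg MCAO 1.

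Htr2c, a receptor coupled to Gq that is strongest in choroid plexus, was lower in every MCAO array. It read 10.47 and 10.25 in WT sham, 10.41 and 10.22 in Hsp72Tg sham, 10.06, 9.86 and 9.82 in WT MCAO and 9.99, 9.93 and 10.01 in Hsp72Tg MCAO. MCAO minus sham was -0.39 over both genotypes (SE 0.08), -0.45 in WT and -0.34 in Hsp72Tg (SE 0.11 each). Its second probe set differed by -0.46 (SE 0.14) and read 8.52 in Hsp72Tg MCAO 1 and 8.26 in Hsp72Tg MCAO 3, within its sham values of 8.22 to 8.68, so the probe sets disagree on those arrays. The mean over 9 choroid plexus markers was 8.02 to 8.09 in the sham arrays and 7.80 to 8.26 after MCAO. In limma 0 of the 9 passed, with 1 at an unadjusted p under 0.05 (lower), against 19.1% of all genes. Sostdc1, the choroid plexus marker with the largest difference, was at -0.52 (SE 0.13, limma adjusted p = 0.0803). Its MCAO arrays (6.66 to 7.19) all lay below its sham arrays (7.25 to 7.65), and it passed without Hsp72Tg MCAO 1 (limma adjusted p = 0.0426). So did 2251 of 18193 genes in that fit, against 266 with all arrays. The part of choroid plexus in the Htr2c values was not tested.

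All 7 measured genes had lower values after MCAO, with a median difference of -0.67 over both genotypes. In limma over both genotypes 3 of the 7 (Tph2, Slc6a4 and Htr2c) lay under an adjusted p of 0.05 as lower and 0 as higher, where 0.407% of all genes did as lower, 1.06% as higher and 1.46% in either direction. Within WT 0 of the 7 did, against 0.0055% of all genes as lower, 0.0495% as higher and 0.055% in either direction. Within Hsp72Tg 1 of the 7 did (Tph2, lower), against 0.0055% as lower, 0.0165% as higher and 0.022% in either direction. In 4 of the 7 every MCAO array lay below every sham array, against 3.41% of all genes, and in 0 of the 7 every MCAO array lay above, against 3.19%. Within WT the lower position held for 6 of the 7 and for 22.5% of all genes, and within Hsp72Tg for 5 of the 7 and 12.8%. The set was chosen on this contrast, so these counts support nothing. The WT and Hsp72Tg comparisons each have their own sham arrays, and the comparison over both genotypes uses all of them.

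The genotypes were compared next, which was not the stated reason for the choice of the set. For Tph2 these comparisons use the values that chose it. Whether its fall was judged within a genotype is not stated, so its genotype differences are not independent of the choice. In limma 0 of the 7 genes passed after sham surgery, after MCAO or for the difference of the MCAO changes, as did 0% of all genes in each comparison, and each gene's adjusted p was 1. At an unadjusted p under 0.05 stood 1 of the 7 after sham surgery (1.56% of all genes), 0 after MCAO (2.68%) and 1 for the difference of the MCAO changes (1.75%). Both times this was Tph2. After sham surgery Tph2 was 0.77 higher in Hsp72Tg than in WT (SE 0.26, interval 0.18 to 1.35, unadjusted p = 0.015 in limma), with both Hsp72Tg sham arrays above both WT sham arrays. It was 0.50 without Hsp72Tg sham 1 and 1.03 without Hsp72Tg sham 2. After MCAO it was at -0.34 (SE 0.21, interval -0.82 to 0.13), and -0.08 without WT MCAO 1. The MCAO difference of Tph2 was larger in Hsp72Tg than in WT by -1.11 (SE 0.33, interval -1.86 to -0.36, unadjusted p = 0.00817 in limma), which did not pass after adjustment. It ranged from -1.37 to -0.84 when each array was left out. All 6 MCAO values behind it are dim, as given above.

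The other 6 genes differed less between the genotypes. After sham surgery their differences lay between -0.05 for Htr2c (interval -0.32 to 0.23) and 0.26 for Htr1b (interval -0.64 to 1.16). After MCAO Slc6a4 was at -0.15 (interval -0.51 to 0.22), Slc18a2 at -0.21 (interval -1.08 to 0.67) and Htr1a at -0.17 (interval -0.58 to 0.24). Maob was at 0.02 (interval -0.27 to 0.32) and Htr2c at 0.06 (interval -0.16 to 0.29). The second Htr2c probe set gave 0.44 after MCAO (SE 0.18) and 0.48 for the difference of the MCAO changes (SE 0.28), against 0.06 and 0.11 (SE 0.16) for the first. The interval of Htr1b after MCAO ran from -0.82 to 0.66, so it and those of Slc18a2 and Htr1a hold differences as large as the MCAO differences of the same genes.

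**Figure D3:**
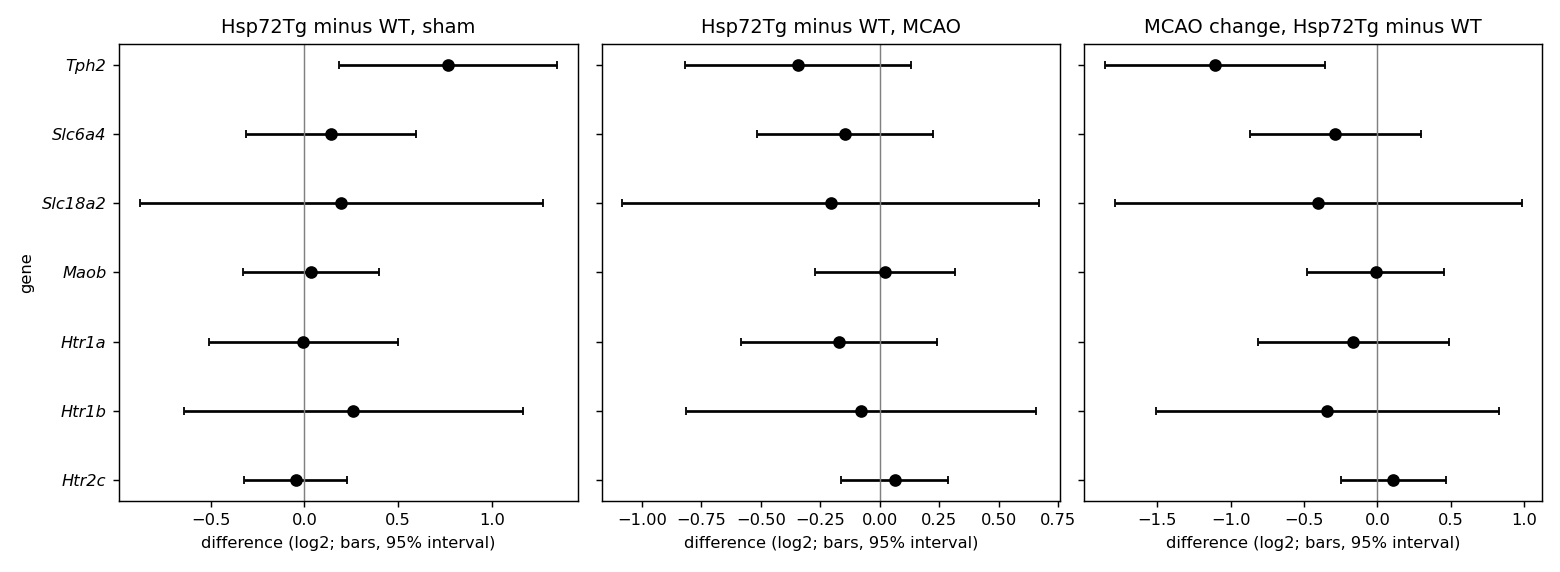
Difference between the genotypes in log2 units (x axis) for the 7 measured genes (y axis) after sham surgery, after MCAO and for the MCAO change, with bars for the 95% interval of the limma fit. The interval of Tph2 lies off 0 after sham surgery and for the MCAO change (the x axes have different scales), and no gene passed after adjustment.

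The remaining serotonin receptor genes were read from a list of 10, all measured. Htr1d, another receptor coupled to inhibitory G proteins, fell by 0.38 over both genotypes (SE 0.07, limma adjusted p = 0.0466) and was the 1 of the 10 that passed, against 0.407% of all genes as lower. At an unadjusted p under 0.05 stood 5 of the 10, all lower, against 19.1% of all genes in either direction. It read 6.88 to 7.07 in the sham arrays and 6.45 to 6.81 after MCAO, with no overlap. Its adjusted p was 0.0565 to 0.196 without any 1 of the 9 arrays other than Hsp72Tg MCAO 1 and 0.00827 without that array, 0.166 with a replicate block and 0.0533 with trend and robust eBayes. The next largest differences, Htr1f at -0.31 (SE 0.10), Htr4 at -0.27 (SE 0.12) and Htr5b at -0.24 (SE 0.07), did not pass. Htr4 differed by -0.47 in Hsp72Tg and -0.08 in WT, and its Hsp72Tg difference rested on arrays 2 and 3 at 5.98 and 6.25, since array 1 read 6.66 and the sham arrays 6.74 to 6.86. The median of the 10 was -0.13, against -0.03 over all genes. Of the 10, Htr3b was dim in every array.

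**Figure D4:**
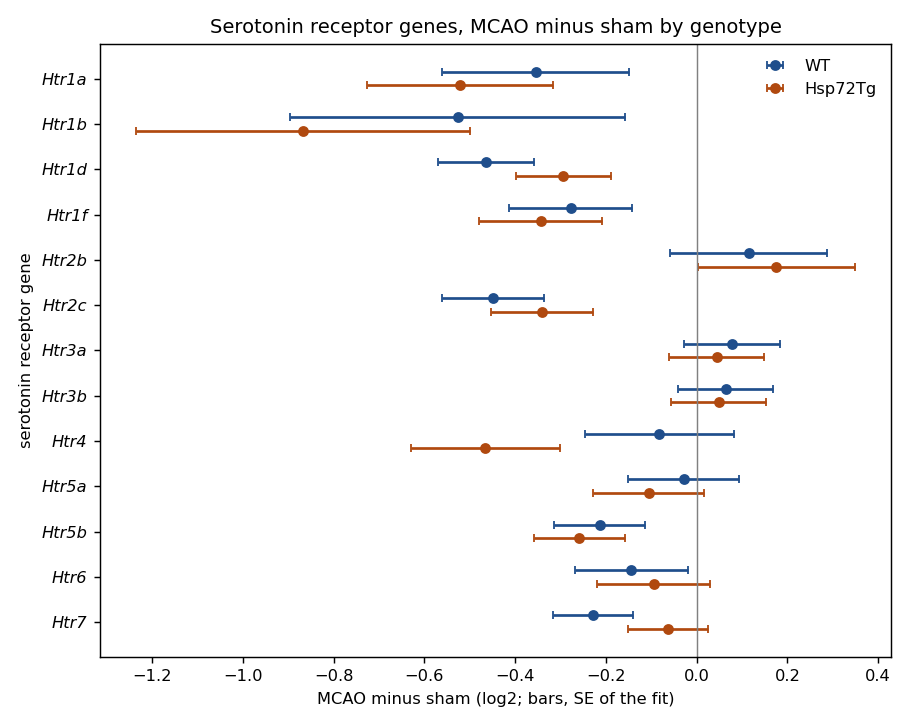
MCAO minus sham in log2 units (x axis) for the 13 measured serotonin receptor genes (y axis), in WT and Hsp72Tg, with bars for the SE of the fit. Htr1b has the lowest value in both genotypes, at -0.53 and -0.87, and Htr3a, Htr3b and Htr2b lie at or above 0.

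The other genes of serotonin handling had smaller differences than Tph2. Of 12 measured genes for synthesis, cofactor, uptake and breakdown 10 had lower values after MCAO, 0 passed over both genotypes in limma and 3 had an unadjusted p under 0.05 (2 lower, 1 higher; 19.1% of all genes), and the median was -0.12. Gch1, the first enzyme of the cofactor tetrahydrobiopterin, stood at 0.61 (SE 0.23, limma adjusted p = 0.19). It read 5.62 to 5.95 in the sham arrays, 5.81 in Hsp72Tg MCAO 1 and up to 7.16 in Hsp72Tg MCAO 2, and without Hsp72Tg MCAO 1 it rose by 0.81 (limma adjusted p = 0.00341). Pts, the next enzyme of that pathway, stood at -0.41 (SE 0.11, limma adjusted p = 0.1). It read 8.42 to 9.05 in sham and 8.14 to 8.40 after MCAO, with no overlap, and passed without Hsp72Tg MCAO 1 (limma adjusted p = 0.0494). The fit without Hsp72Tg MCAO 1 passed 2251 of 18193 genes, against 266 with all arrays. Without Hsp72Tg sham 2, which left Hsp72Tg sham 1 alone in its group, the difference of Pts was -0.57. Tph1, the synthesis enzyme outside neurons, was dim in 9 of the 10 arrays. Of 8 measured transcription factors of serotonin neurons other than Fev 0 passed in limma, 1 had an unadjusted p under 0.05 (lower, against 19.1% of all genes), and the median was 0.00. En2 had the largest difference of these at -0.62 (SE 0.22). It read 6.59 in WT sham 1, the array with the high Gabra6 value, and 5.16 to 5.47 in the other sham arrays. Its difference was -0.26 without WT sham 1 and -0.98 without WT sham 2, which left WT sham 1 alone in its group. All 6 MCAO values of En2 were dim and none of its sham values was. Lmx1b, which serotonin neurons need to form and which was named after its values were seen, read 5.44 to 5.73 in sham and 5.55 to 5.75 after MCAO.

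Of 15 G proteins, effectors and partners of these receptors 1 passed, against 1.06% of all genes as higher, and 6 had an unadjusted p under 0.05 (3 lower, 3 higher; 19.1% of all genes). S100a10, the adaptor p11 that binds Htr1b, rose by 0.78 (SE 0.13, limma adjusted p = 0.032) and read 8.63 to 9.29 in sham and 9.32 to 9.92 after MCAO. It passed in 4 of the 10 fits that left out 1 array, with limma adjusted p from 0.00354 to 0.142, and not with a replicate block (limma adjusted p = 0.154). Gnai2, an inhibitory G protein subunit, stood at 0.55 (SE 0.12, limma adjusted p = 0.0563), while the effector enzyme Plcb1 stood at -0.45 (SE 0.14) and Rgs4, which shortens G protein signals, at -0.45 (SE 0.20). S100a10 and Gnai2 are also made by glia, vessels and blood cells.

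Brainstem, blood and other markers were read beside Tph2 and Slc6a4. Over 12 measured hindbrain and spinal position markers the mean was 5.61 to 5.73 in sham and 5.56 to 5.76 after MCAO. Of the 12, 0 passed in limma (1.46% of all genes) and 0 had an unadjusted p under 0.05 (19.1% of all genes). Dim in every array were 4 of these markers. Slc6a5, the glycine transporter of brainstem neurons, had the largest difference of these at -0.27 (SE 0.15). The list, of Hox genes with Slc6a5 and Glra1, was not drawn up to mark the raphe nuclei. Its mean therefore does not show whether the raphe nuclei were sampled alike. Cerebellar markers had a mean of 8.86 in WT sham 1 and 6.70 to 7.02 in the other 9 arrays, while Tph2 read 5.39 and 5.40 in WT sham 1 and WT sham 2. General neuron markers had a mean of 12.50 to 12.54 in sham, 12.55 in Hsp72Tg MCAO 1 and 12.18 to 12.41 in the other MCAO arrays, and cortical projection neuron markers 9.67 to 9.90 in sham and 9.32 to 9.96 after MCAO. Of 9 general neuron, 9 cortical, 6 hippocampal and 9 cerebellar markers 0 passed in limma, and 4, 3, 2 and 3 had an unadjusted p under 0.05 (19.1% of all genes). Without Hsp72Tg MCAO 1, 2251 of 18193 genes passed in limma, against 266 with all arrays. The neuronal Tubb3 (limma adjusted p = 0.0332), the cortical Neurod6 (0.0334) and the hippocampal Spink8 (0.00972) were among them, all lower. The cerebellar Gabra6 stood at -1.27 over both genotypes, 0.05 without WT sham 1 and -2.60 without WT sham 2. That last fit left only WT sham 1, the array with the high Gabra6 value, in its group. Platelets and mast cells also hold serotonin. Of 6 platelet and 7 mast cell markers 0 passed in limma, 1 (higher) and 2 (lower) had an unadjusted p under 0.05 (19.1% of all genes), and 1 and 3 were dim in every array. The platelet chemokine Pf4 stood at 1.01 and the mast cell receptor Kit, which some neurons also make, at -0.49. Both were among the 2251 genes that passed without Hsp72Tg MCAO 1 (limma adjusted p = 0.000307 and 0.00347). The median was 0.06 over the 6 platelet markers (4 higher, 2 lower) and -0.02 over the 7 mast cell markers (2 higher, 5 lower). Whether the block of tissue taken as the hemisphere held the same part of the midline brainstem in each mouse was not tested.

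The genes most like Tph2 were sought by Pearson's r over the 10 arrays, as a description in which arrays of a group share their surgery. The closest were Rit2 (r = 0.94), Olfm3 (0.92), Eif5a2 (0.92), Efcab10 (0.92), Rbbp6 (0.92), Hecw2 (0.92), Mosmo (0.91) and Arl3 (0.91), and Slc6a4 stood at 0.92 with 2 genes above it. MCAO minus sham was -0.15 to -0.66 in these 8 genes, each smaller than in Tph2 and Slc6a4. Htr2c had r = 0.87, Maob 0.79, Slc18a2 0.65, Htr1a 0.58 and Htr1b 0.56. These values largely hold the difference between MCAO and sham on which the set was chosen. When each array was taken as its deviation from its group mean, r with Tph2 was 0.73 for Htr2c, 0.40 for Slc6a4, 0.38 for Slc18a2, 0.25 for Maob, -0.41 for Htr1b and -0.50 for Htr1a. By that measure the closest genes were Tepp, Aldh1a3, Krt13, Tulp1 and Hoxa7, each at 0.99. All 5 were highest of the 10 arrays in WT MCAO 1 and lowest in Hsp72Tg sham 2, and their MCAO minus sham difference was 0.05 to 0.19. They were picked for that pattern, so their high values in WT MCAO 1 follow from the choice.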

How the data were processed

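Total RNA of hemisphere tissue was hybridised to 10 Affymetrix arrays. The authors deposited log2 expression values, and the submitters' processing notes name RMA without a version. Of 45101 probe sets 64 were controls. The platform annotation gave 34945 probe sets 1 gene symbol, 932 several and 9160 none, and 34741 were matched to RefSeq by Entrez ID with 0 symbols changed. Per gene the probe set with the highest mean stood for the gene (18193 genes, 9010 with more than 1 probe set). Array medians were 6.67 to 6.73. The number of arrays limits the precision, and whether each array was 1 mouse is not stated, so p-values measure only the spread between these samples.

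limma 3.58.1 in R 4.3.3 fitted the 4 groups (lmFit, contrasts, eBayes), with Benjamini-Hochberg adjustment over all genes at 0.05. The fit was tested on simulated data. The members and lists were chosen with earlier results of these data known. Named genes were the members, up to 4 genes per list with the largest MCAO difference, list genes that passed, and the 8 and 5 genes most like Tph2, passing over clone and predicted names. Alternatives were quantile normalization, centring each array on its median, eBayes with trend and robust options, a filter on dim genes, the mean over probe sets, only the compared groups, a replicate block, and leaving out arrays. Promoters were from RefSeq, GRCm38.p6, whose table held 8 of the 9 members and not Maob.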

Additional observations from a re-analysis of the deposited data

How the results depend on the processing

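The differences between MCAO and sham kept their sign in all 7 measured genes under every alternative run. The 1 shift as large as the gene's residual standard deviation was Htr2c in WT, at -0.57 with the mean over probe sets. Noisier genes shifted further without reaching that limit. Slc18a2 in WT went from -0.47 to -0.10 without WT MCAO 2, and Htr1b in Hsp72Tg from -0.87 to -1.26 without Hsp72Tg MCAO 1. Counts of genes passing in limma depended on the arrays. Over both genotypes 266 genes passed, 19 with a replicate block, 1177 without WT sham 1 and Hsp72Tg MCAO 1 together, and 11 to 2251 without each array, the most without Hsp72Tg MCAO 1. In WT 10 passed, 0 with the block, 6 with the mean over probe sets, 148 without that pair of arrays, 955 with only the compared groups, and 0 to 463 without each array. In Hsp72Tg 4 passed, 0 with the block, 780 without the pair, 0 with only the compared groups, and 0 to 1181 without each array. The difference of the MCAO changes had 0, 1 without the pair and 0 to 2 without each array. The genotypes after MCAO had 0, and 0 to 5 without each array. After sham surgery they had 0, 2 without the pair, 3 with only the compared groups and 0 to 3 without each array. Deviations of same-numbered samples correlated at -0.156 to 0.249. Samples with different numbers were not compared, so these values do not show whether the replicate numbers pair the samples. The cause of the shifts in the counts was not tested.

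Small genotype differences changed sign. For the difference of the MCAO changes Maob was 0.0226 with quantile normalization and 0.13 without the pair, and Htr2c -0.0114 without the pair. After MCAO Slc18a2 was 0.27 without the pair and Htr1b 0.0203 with the mean over probe sets. After sham surgery Htr1a was 0.10 with the mean over probe sets and 0.0059 without the pair, and Htr2c 0.0657 without the pair. Over both genotypes Slc6a3 was 0.11 and Ddc 0.22 without the pair. Without each array the difference of the MCAO changes was -0.77 to 0.0687 for Slc18a2, -0.19 to 0.16 for Maob, -0.73 to 0.058 for Htr1b and -0.0034 to 0.22 for Htr2c. After MCAO it was -0.24 to 0.0341 for Slc6a4, -0.57 to 0.27 for Slc18a2, -0.0547 to 0.16 for Maob and -0.47 to 0.32 for Htr1b. After sham surgery it was -0.089 to 0.37 for Slc6a4, -0.14 to 0.21 for Maob, -0.11 to 0.10 for Htr1a and -0.16 to 0.0657 for Htr2c. Over both genotypes it was -0.55 to 0.11 for Slc6a3 and -0.41 to 0.0307 for Ddc.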
